A study of Mus musculus with 48 samples.

Results

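Markers of other brain and blood cells, 9 genes in all, were followed across 3 rearing groups of mouse pups. The markers were among 478 analysed genes of a glial panel measured in sorted hippocampal microglia. The members were taken by name. They were 2 astrocyte genes (Slc1a3 and Glul), 4 genes of the oligodendrocyte lineage (Mag, Cnp, Cspg4 and Plxnb3), 1 neuronal gene (Gad1), 1 vascular gene (Pecam1) and 1 natural killer cell gene (Klrd1), and all 9 were present in each table. The animals were Balbc/Byj pups of both sexes, 17 days old, reared as UPS, LB or CTL, with 16 animals per group and 8 of each sex. As background, LB is rearing with limited bedding and nesting material, UPS adds unpredictable stress to it, and CTL is the control. According to the labels' protocols, a Percoll gradient and then flow sorting yielded 60000 hippocampal microglia from each pup, and their lysate went straight to RNA counting on the nCounter platform. Within a rearing group, the 8 pups of 1 sex were drawn from 4 to 5 litters, which means that littermates are among them.

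Astrocytes clear glutamate from the synapse and return it to neurons as glutamine. Oligodendrocytes wrap axons in myelin and arise from progenitors that carry the proteoglycan encoded by Cspg4. Both cell types are abundant in the young hippocampus, where myelination is under way, and their transcripts are commonly used to judge how pure a microglial sort is. None of these markers is exclusive to its cell type: microglia are known to transcribe some Slc1a3 and Glul, pericytes carry Cspg4 and leukocytes carry Pecam1. In these bulk samples a different number of cells of another type and a different amount of RNA per cell cannot be told apart.

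The values were the log2 ratio, linear ratio, p-value and adjusted p of the authors' deposited tables, 1 table for each pair of groups. The headers do not say which group is the numerator, so every sign stands as in the files and says nothing on which group had more transcript. The 3 ratios of a gene fit together whichever way they run, so the spacing of the groups and the group in the middle can be read without knowing the direction. Values per library were not analysed here, and the level, the counts and the depth behind each ratio are therefore unknown. A standard error was recovered for each gene from its deposited ratio and p, and it gave the 95% intervals. A gene passed at a Benjamini-Hochberg adjusted p below 0.05 over all 478 genes. The p-values treat littermates as independent.

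The cell type of the label was looked at through lists of markers. Of 20 listed microglial genes 19 were among the 478 analysed. For other cells the analysed share was smaller, with 2 of 15 astrocyte genes, 5 of 28 oligodendrocyte lineage genes, 1 of 19 neuronal genes, 2 of 17 vascular genes, 1 of 23 natural killer, T and B cell genes, 1 of 13 neutrophil and monocyte genes and 2 of 11 border macrophage genes. These numbers depend on the probes of the panel and on the authors' filter of 20 counts as well as on the cells, and ratios cannot show how much of a marker was present.

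One of the 9 markers passed, Slc1a3, and it did so in both comparisons that involve UPS. By the authors' nSolver p with Benjamini-Hochberg adjustment, 0 of the 9 passed between LB and CTL, where 0% of all genes passed, and 0 of the 9 had an unadjusted p below 0.05, against 11.7% of all genes. In the comparison of UPS with CTL 1 of 9 passed, against 4.81% of all genes, and in that of UPS with LB 1 of 9 passed, against 6.28% of all genes. A single call is the smallest count above 0 that 9 genes can give, so these shares are no result about the markers as a group. At an unadjusted p below 0.05 there were 2 of 9 between UPS and CTL (16.3% of all genes) and 4 of 9 between UPS and LB (18.8% of all genes). The comparisons share groups, and the ratios of UPS with LB follow from the other 2 tables.

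Slc1a3 encodes GLAST, a sodium-driven transporter that takes up glutamate. Its log2 ratio in the authors' deposited table was 0.21, or 1.16-fold, between UPS and CTL (recovered 95% interval 0.080 to 0.34, p = 0.00221, adjusted p = 0.0461). Between UPS and LB it was 0.25, or 1.19-fold, in the authors' deposited table (interval 0.12 to 0.38, p = 0.000375, adjusted p = 0.00995). LB and CTL lay close together, with a log2 ratio of -0.039 in the authors' deposited table (interval -0.17 to 0.091, adjusted p = 0.842). UPS thus stood apart on one side and CTL lay between UPS and LB. Among 478 genes ordered by p, Slc1a3 ranked 22nd between UPS and CTL, where 23 passed, and 18th between UPS and LB, where 30 passed. The weakest p to pass between UPS and CTL was 0.00222, so Slc1a3 stood just inside the threshold there. Adjusting all 3 tables at once ended the call between UPS and CTL (adjusted p = 0.0559), and Benjamini-Yekutieli and Bonferroni adjustment ended both calls (adjusted p = 0.0672 and 0.179 between UPS and LB, 0.311 and 1.0 between UPS and CTL).

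Glul encodes glutamine synthetase, which converts the glutamate that astrocytes take up into glutamine. Its ratios had the same signs as those of Slc1a3 and smaller sizes against UPS, and none passed. They were 0.11 between UPS and CTL (interval -0.013 to 0.23, adjusted p = 0.363), 0.15 between UPS and LB (interval 0.034 to 0.27, p = 0.0132, adjusted p = 0.117) and -0.047 between LB and CTL (adjusted p = 0.79) in the authors' deposited tables. The groups therefore stood in the same order for both astrocyte genes. The difference between the log2 ratios of Slc1a3 and Glul was 0.10 between UPS and CTL, with an interval from -0.15 to 0.35 under the widest error that any correlation between the genes allows. For UPS and LB it was 0.096, with an interval from -0.15 to 0.35. That Slc1a3 passed and Glul did not is thus no evidence that they differed.

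**Figure D1:**
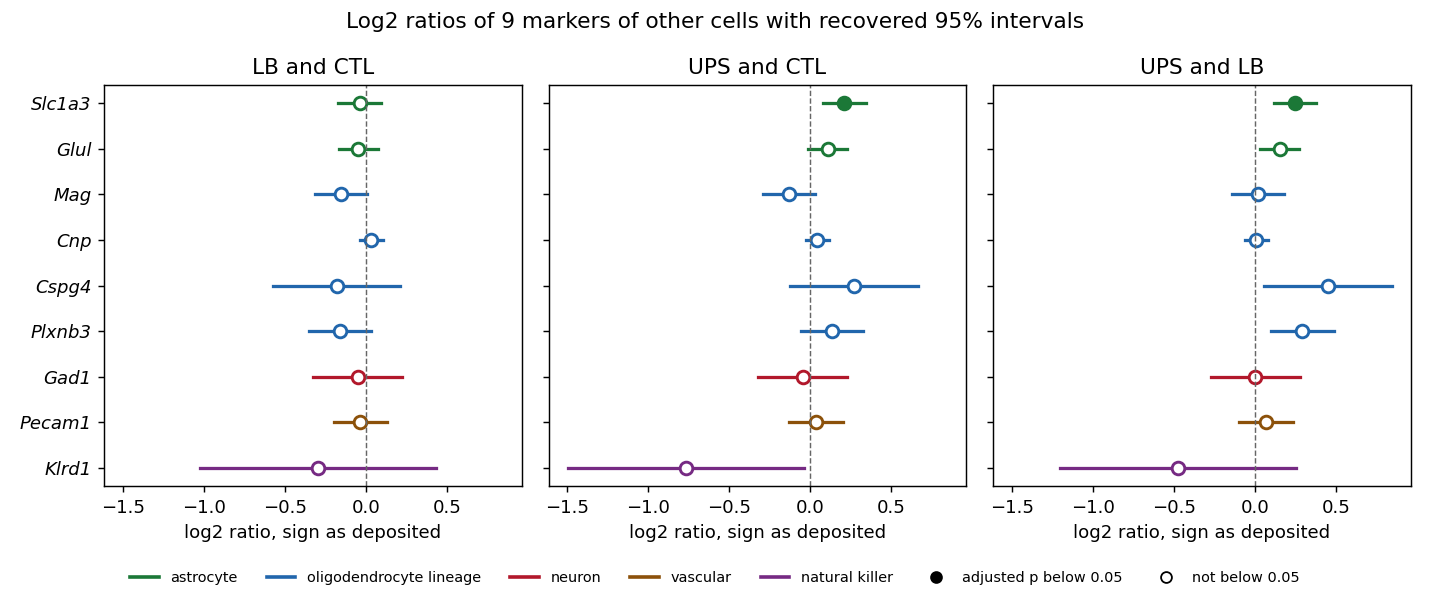
Log2 ratios of the 9 markers (horizontal axis, sign as deposited) in the comparisons of LB with CTL, UPS with CTL and UPS with LB, with bars for the recovered 95% intervals, colours for cell classes and filled points for an adjusted p below 0.05. Slc1a3 is the only filled point, at 0.21 between UPS and CTL and 0.25 between UPS and LB, and the bars of Klrd1 and Cspg4 are the widest.

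None of the oligodendrocyte lineage genes passed in any comparison. Cspg4, the NG2 proteoglycan of oligodendrocyte progenitors and pericytes, and Plxnb3, a plexin that serves as a semaphorin receptor, both had CTL in the middle, as the astrocyte genes did. Plxnb3 had a log2 ratio of 0.29, or 1.23-fold, between UPS and LB in the authors' deposited table (interval 0.10 to 0.49, p = 0.00372, adjusted p = 0.0519). It ranked 34th of 478 by p there and stood just outside the threshold; with log2 ratios centred on the median of all genes it passed (adjusted p = 0.0442). Its ratio was 0.13 between UPS and CTL (adjusted p = 0.481) and -0.16 between LB and CTL (adjusted p = 0.492) in the authors' deposited tables. Cspg4 had a larger ratio and a larger error, with 0.45, or 1.37-fold, between UPS and LB in the authors' deposited table (interval 0.058 to 0.84, p = 0.0254, adjusted p = 0.176). It was at 0.27 between UPS and CTL (adjusted p = 0.481) and at -0.18 between LB and CTL (adjusted p = 0.78) in the authors' deposited tables.

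Mag and Cnp are the myelin genes among the 9 markers. Mag, an adhesion protein of the myelin membrane that faces the axon, was at 0.021 between UPS and LB in the authors' deposited table (interval -0.14 to 0.18, adjusted p = 0.909). Its log2 ratios were -0.13 between UPS and CTL (p = 0.105) and -0.15 between LB and CTL (p = 0.0616) in the authors' deposited tables, and neither passed (adjusted p = 0.403 and 0.444). Cnp, an enzyme of the cytoplasmic channels of myelin, had the smallest error of the 9 markers. Its log2 ratios were 0.042 between UPS and CTL, 0.0093 between UPS and LB and 0.033 between LB and CTL in the authors' deposited tables (adjusted p = 0.556, 0.905 and 0.76). Its interval between UPS and CTL ran from 0.981-fold to 1.08-fold, between UPS and LB from 0.959-fold to 1.06-fold and between LB and CTL from 0.975-fold to 1.07-fold.

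Within the astrocyte and the oligodendrocyte lineage class, 21 differences between members' ratios were looked at, 7 in each comparison, with unadjusted 95% intervals that allow any correlation between the genes. One of the 21 excluded 0. This was Plxnb3 minus Cnp between UPS and LB, at 0.28 (interval 0.022 to 0.55). Cspg4 minus Cnp in the same comparison was larger, at 0.44, with an interval from -0.021 to 0.90. Mag and Cnp differed there by 0.012 (interval -0.22 to 0.24).

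Gad1 encodes a glutamate decarboxylase that makes the transmitter GABA in inhibitory neurons. Its log2 ratios in the authors' deposited tables were -0.047 between UPS and CTL, 0.0029 between UPS and LB and -0.050 between LB and CTL, with p = 0.73, 0.983 and 0.714. The intervals reached from 0.800-fold to 1.17-fold between UPS and CTL, from 0.828-fold to 1.21-fold between UPS and LB and from 0.798-fold to 1.17-fold between LB and CTL.

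Pecam1 encodes CD31, an adhesion molecule of endothelial junctions. In the authors' deposited tables it was at 0.033 between UPS and CTL, 0.068 between UPS and LB and -0.035 between LB and CTL, and its smallest p was 0.414. Cd34, a sialomucin of endothelial and progenitor cells, was the only other listed vascular gene analysed, and neither of its comparisons with CTL passed. Its log2 ratio was -0.40 between UPS and CTL (p = 0.00257, adjusted p = 0.0511), 0.018 between UPS and LB (adjusted p = 0.968) and -0.42 between LB and CTL (p = 0.0017, adjusted p = 0.194) in the authors' deposited tables. With all 3 tables adjusted at once, the adjusted p of Cd34 was 0.0498 between LB and CTL and 0.0635 between UPS and CTL. The Pecam1 intervals against CTL ran from 0.912-fold to 1.15-fold for UPS and from 0.871-fold to 1.09-fold for LB. Over the 3 groups together Cd34 passed (F test, adjusted p = 0.0331) and Pecam1 did not (adjusted p = 0.824). The difference between these genes was not tested.

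Klrd1 encodes CD94, the lectin-like partner of NKG2 receptors on natural killer cells. It combined the largest ratios of the 9 markers with the largest error. Its log2 ratio between UPS and CTL was -0.77, or 0.587-fold, in the authors' deposited table (interval -1.50 to -0.042, p = 0.0388, adjusted p = 0.294). By size this was the 2nd of 478 genes in that comparison, and by p the 63rd. Between UPS and LB it was -0.47 (p = 0.199, adjusted p = 0.516), and between LB and CTL it was -0.30 (p = 0.411, adjusted p = 0.79) in the authors' deposited tables. LB lay between UPS and CTL. The interval between UPS and CTL ran from 0.354-fold to 0.972-fold. To reach the weakest p that passed in that comparison, Klrd1 would have needed a change of 2.26-fold, Cspg4 one of 1.55-fold and Cnp one of 1.08-fold.

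**Figure D2:**
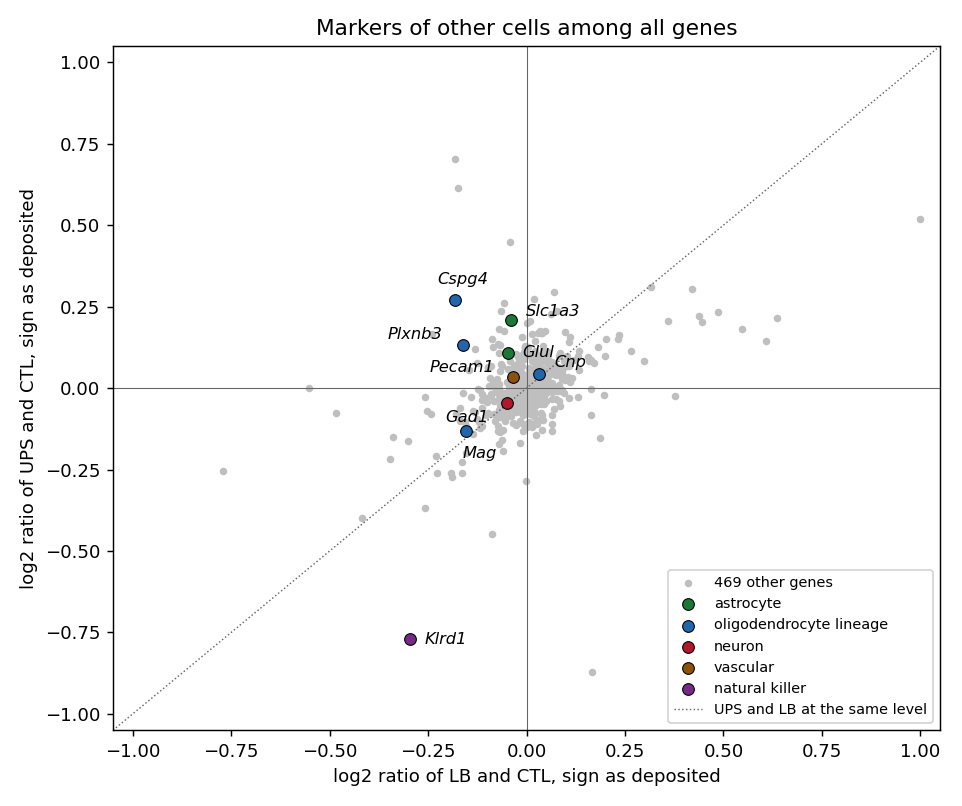
Each of the 478 genes by its log2 ratio between LB and CTL (horizontal) and between UPS and CTL (vertical), signs as deposited, with the 9 markers coloured by cell class and a dotted line where UPS and LB are at the same level. The axes share the CTL animals. Slc1a3 (-0.039, 0.21), Glul (-0.047, 0.11), Plxnb3 (-0.16, 0.13) and Cspg4 (-0.18, 0.27) lie above the dotted line, Mag (-0.15, -0.13) lies near it, and Klrd1 (-0.30, -0.77) lies far below it.

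Set against each other, 5 of the 9 markers had CTL as the middle group (Slc1a3, Glul, Cspg4, Plxnb3 and Pecam1), 2 had LB (Cnp and Klrd1) and 2 had UPS (Mag and Gad1). The order is a description, since most neighbouring groups did not differ beyond the error. The same count over all genes was not made, so these counts do not set the markers apart. The median log2 ratio of the 9 markers was 0.042 between UPS and CTL, against -0.0024 for all genes, 0.068 between UPS and LB, against -0.010 for all genes, and -0.050 between LB and CTL, against 0.0035 for all genes. Their median size, regardless of sign, was 0.13, 0.15 and 0.050 in that order, against 0.051, 0.054 and 0.043 for all genes. With so few genes these medians hang on single members: without Slc1a3 the median log2 ratio was 0.038 between UPS and CTL, 0.044 between UPS and LB and -0.10 between LB and CTL, and the median size 0.12, 0.11 and 0.10. Sizes regardless of sign also grow with the error, and the median recovered standard error of the 9 markers was 0.082, against 0.050 for all genes.

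The 3 pairs hold 2 independent differences, and 1 F test per gene over the 3 groups was computed from the ratios and the recovered standard error. Of 474 genes tested 33 passed (6.96%), and of the 9 markers 1 did. At an unadjusted p below 0.05 there were 3 of the 9 markers and 19.6% of all genes. Slc1a3 had an adjusted p of 0.0181. Plxnb3 (p = 0.014, adjusted p = 0.121) and Glul (p = 0.0386, adjusted p = 0.215) had an unadjusted p below 0.05 and did not pass. The other 6 had adjusted p-values from 0.298 for Cspg4 to 0.946 for Gad1.

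The errors of these markers were larger than those of most analysed genes. Their median recovered standard error was 0.082 on the log2 scale, against 0.050 for all genes and 0.034 for the 19 microglial genes. Of the 9, 8 lay above the median of all genes, and Cnp, at 0.035, did not. Glul (0.060), Slc1a3 (0.065), Mag (0.080), Pecam1 (0.082) and Plxnb3 (0.096) followed Cnp. Gad1 (0.14), Cspg4 (0.19) and Klrd1 (0.36) had larger errors than every gene on the microglial list, and 99.4% of all genes had a smaller error than Klrd1. Whether a low count or a spread between animals gave these errors was not tested. The 95% interval of a ratio accordingly reached 1.05-fold to either side for Cnp, 1.09-fold for Glul and Slc1a3, 1.31-fold for Cspg4 and 1.66-fold for Klrd1.

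**Figure D3:**
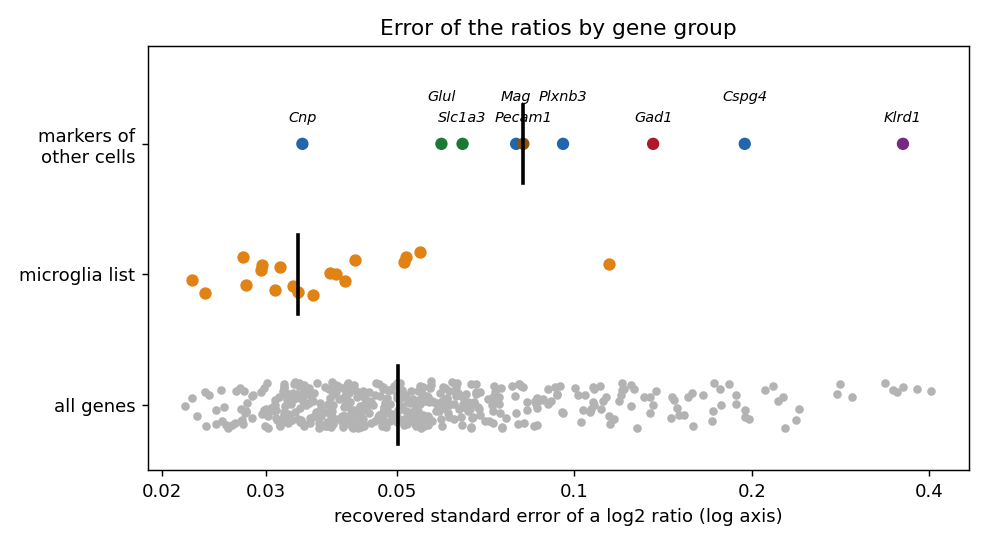
Recovered standard error of a log2 ratio (horizontal, log axis) for the 9 markers of other cells, 19 microglial genes and all 478 genes, 1 point per gene with a black bar at each median; vertical scatter within the lower rows has no meaning. The medians are 0.082, 0.034 and 0.050, and Klrd1 lies at 0.36.

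The genes around Slc1a3 and Glul in glutamate and GABA handling were few. Of 41 genes on that list 6 were analysed, among them Slc1a3, Glul and Gad1, and 1 passed between UPS and CTL and between UPS and LB, Slc1a3. Slc38a1, a glutamine carrier, had log2 ratios of 0.11 between UPS and CTL, 0.022 between UPS and LB and 0.085 between LB and CTL in the authors' deposited tables. Got1, an aspartate aminotransferase, was at -0.061, 0.051 and -0.11 in the same order in the authors' deposited tables. Neither passed in any comparison, and their adjusted p-values were 0.298 or more. Of 23 semaphorin and plexin genes only Plxnb3 was analysed.

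Other blood and border cell genes gave the following values. Csf3r, a neutrophil growth factor receptor that other myeloid cells also carry, was at -0.062 between UPS and CTL, 0.11 between UPS and LB and -0.17 between LB and CTL in the authors' deposited tables, and none passed (adjusted p = 0.556, 0.245 and 0.194). Of the 2 analysed genes on the border macrophage list, the scavenger receptor Stab1 passed in both comparisons with UPS. Its ratios in the authors' deposited tables were 0.205 against CTL and 0.195 against LB. Apart from Stab1 and Apoe, no gene of that list was analysed. The part of border macrophages in the Stab1 ratios was not tested. The lipid carrier Apoe, at 0.12 and 0.13 in the authors' deposited tables, did not pass (nSolver p = 0.0451 and 0.0386, adjusted p = 0.30 and 0.218). Among the 19 microglial genes 0 passed between UPS and CTL (5 at an unadjusted p below 0.05) or between LB and CTL (4 at an unadjusted p below 0.05), and 4 passed between UPS and LB, namely C1qa (0.13), C1qb (0.16) and C1qc (0.13), chains of complement C1q, and the surface marker Tmem119 (0.46) in the authors' deposited table. Slc1a3 and these 4 microglial genes were among 22 genes that passed between UPS and LB with a positive sign as deposited, against 8 with a negative one. Of the 19 microglial genes, 10 had a positive ratio in that comparison and 9 a negative one. The part of other cells in the Slc1a3 ratios was not tested.

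The 5 genes nearest to Slc1a3 by the distance between their log2 ratios in the 3 tables were Pmp22, a membrane protein best known from peripheral myelin, Pik3cb, a catalytic PI3-kinase subunit, Cables1, a Cdk5-binding protein, Usp2, a ubiquitin protease, and Stab1. Their ratios in the authors' deposited tables ran from 0.18 to 0.24 between UPS and CTL, from 0.20 to 0.30 between UPS and LB and from -0.069 to 0.0097 between LB and CTL. Of the 5, 4 passed in both comparisons with UPS, and Pmp22 did not (adjusted p = 0.226 and 0.0519). Because the 5 were picked for ratios close to those of a gene that passed, this count is no separate result. None of the other 8 markers was among the 5. The likeness rests on 3 ratios that hold 2 independent differences, and distance takes no account of the errors.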

How the data were processed

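RNA was counted with the nCounter mouse glial panel in 48 microglial samples run in 4 batches of 12, each with every rearing group and sex. The 478 genes analysed are those with deposited ratios, not the whole panel as counted. Per the file headers, the deposited tables give for each gene a log2 fold change, its linear ratio, and a p-value before and after Benjamini-Hochberg adjustment. Per the series text, the authors kept genes above 20 counts and compared each pair with nSolver, with batch as a covariate. The sources used here do not give the normalization, the software version or the direction of the ratios.

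No model was refitted. Deposited p-values were adjusted over 478 genes with SciPy 1.17.1, and all 1434 calls equalled those of the authors' adjusted p. Standard errors were recovered from ratio and p with a t distribution. Of 6 candidate models, 42 residual degrees of freedom (all groups and batch) gave errors that agreed best across a gene's tables (median mismatch 0.329%). Close models of all groups (0.339% to 0.359%) are not told apart by this, and models of 2 groups gave 0.739% and 0.912%. One error per gene was taken from the table with its smallest p. The F test has 2 numerator degrees of freedom, assumes groups of 16 with 1 common variance, and left out 4 genes whose errors differed by over 5% between tables. Both steps were tested on data simulated from the model of all groups and batch with 42 residual degrees of freedom. That test cannot show which model the authors' software used. Where the authors' software used another model for a gene, its recovered error is approximate.

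Named genes were the 9 markers, genes of 10 marker and pathway lists that passed or had the smallest p, and the 5 genes nearest to a marker that passed. Some genes that this rule names are not reported here, and Got1 was named after its values were seen. The markers and lists were chosen with earlier results of these data known. All 9 symbols matched RefSeq's GRCm38.p6 gene table; no coordinates are given because the files name no build.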

Additional observations from a re-analysis of the deposited data

How the results depend on the processing

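Centring log2 ratios on the median of all genes moved them by at most 0.010 and changed the sign of 1 ratio of the named genes, that of Usp2 between LB and CTL, which was 0.0024 as deposited and -0.0011 centred. The number of the 9 markers past the threshold between UPS and CTL was 1, and it was 0 with all 3 tables adjusted at once, 0 with Benjamini-Yekutieli and 0 with Bonferroni adjustment. Between UPS and LB it was 1, and it was 0 with Benjamini-Yekutieli (Slc1a3 adjusted p = 0.0672), 0 with Bonferroni (0.179), 2 after centring and 2 at a threshold of 0.1, with Plxnb3 added in both. Between LB and CTL it was 0 under all 6 alternatives. The F test over the 3 groups called 1 marker, and 0 with Benjamini-Yekutieli (Slc1a3 adjusted p = 0.122). Over all genes, the calls between UPS and CTL numbered 23, against 4 with Benjamini-Yekutieli and 5 with Bonferroni, and between UPS and LB 30, against 13 and 11, or 48 at the threshold of 0.1. Both adjustments are stricter by construction, and centring adds 0.010 to every ratio between UPS and LB; the cause of the other changes was not tested. The F test called 33 genes, against 12 with Benjamini-Yekutieli, 24 with 30 and 17 with 27 residual degrees of freedom. Interval widths changed by -3.18% to 1.29% with the other residual degrees of freedom. No paired analysis was possible because the files used give ratios and no values per animal. For the same reason litter, sex, single animals and batches could not be examined, and counts and signal over background remain unknown.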
